A study of Mus musculus with 30 samples.

Results

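Pathogenic Th17 cultures of mouse CD4 T cells, written pTh17 here, were sorted into cells that had switched on the IL-10 reporter and cells that had not. The pTh17 libraries were those whose titles name that culture, 6 of 30 in the study, with 3 IL-10 positive and 3 IL-10 negative libraries numbered 13, 14 and 15. The starting cells of both groups were naive CD4 T cells, and the C57BL/6 donor mice carried reporters for Foxp3 (GFP) and IL-10 (Thy1.1). All cells were activated with soluble anti-CD3 at 2.5 ug/ml and irradiated splenocytes without CD4 T cells, at 6 of these feeder cells per T cell. Polarisation used 3 cytokines, 20 ng/ml of IL-1 beta, 20 ng/ml of IL-23 and 25 ng/ml of IL-6. At 72 h live GFP negative cells with a T cell receptor and CD4 were sorted by the Thy1.1 reporter, and 2000 cells were lysed per library. The groups therefore share age in culture, feeder cells, cytokines and genotype, and a reporter marks cells by Il10 promoter activity and not by secreted protein. The other cultures of the study were Th1, Th2, Tr1 and non-pathogenic Th17, the last made with 25 ng/ml of IL-6 beside 2 ng/ml of TGF-beta 1 and written Th17 below.

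Th17 cells are CD4 T cells that make IL-17A, IL-17F and IL-22. Those raised with IL-23 and IL-1 beta are called pathogenic because such cells cause tissue inflammation in mouse models of autoimmunity. IL-10 is a cytokine that restrains macrophages, dendritic cells and T cells, and in T cells its gene is switched on by factors that include c-Maf and Blimp-1. The comparison asks what else differs between cells of the same inflammatory culture that do and do not transcribe Il10.

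Total expected counts ran from 6611409 to 8446871 in IL-10 positive and from 7492604 to 8761272 in IL-10 negative pTh17 libraries. Values per library are given as CPM (the count relative to the library total as scaled by edgeR), in the order of replicates 13, 14 and 15, and ± after a log2 fold change is its standard error. Replicates correlated at 0.982 to 0.984 in log CPM across genes, and the spread beyond counting error was 7.48% in IL-10 positive and 8.25% in IL-10 negative libraries. The labels do not say whether replicates were separate cultures or animals, and the spread behind the p-values, that of these libraries, may therefore be technical. T cell identity genes were high in both groups. Cd4 stood at 699, 618 and 597 CPM in IL-10 positive libraries, against 707, 693 and 654 CPM in IL-10 negative libraries. Foxp3, which the sort should leave out, was at or below 0.781 CPM in all 6.

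Il10 stood at 53.7, 50.9 and 50.026 CPM in IL-10 positive libraries, against 1.20, 0.781 and 0.353 CPM in IL-10 negative libraries. Thy1, which encodes both the reporter protein and the T cell surface protein of the same name, stood at 345, 335 and 309.8 CPM in IL-10 positive libraries, against 189, 209.7 and 192 CPM in IL-10 negative libraries. For both genes the groups did not overlap. The log2 fold change was 6.03 ± 0.23 for Il10 and 0.75 ± 0.07 for Thy1. Because the cells were sorted on this reporter, the values of both genes describe the sort and are no separate result.

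Across the transcriptome, edgeR called 10.1% of 12611 tested genes higher and 8.33% lower in IL-10 positive than in IL-10 negative pTh17 cells (adjusted p below 0.05). These shares are the background for the counts of called list members given below. Genes near 0 in IL-10 negative libraries passed the filter on low counts only through other libraries. Their fold changes, and their part in those counts, are descriptions. The median log2 fold change over all tested genes was -0.0049. Genes called and at least 2-fold higher made up 2.57% of those tested, and those at least 2-fold lower 0.722%. In 32.7% of the tested genes every IL-10 positive library lay on the same side of every IL-10 negative one. Of the lists of T cell genes other than the pair of Il10 and Thy1, those with the highest shares called higher were cell cycle (28 of 30), chemokines (6 of 9), cytokines (16 of 26, with Il10 counted) and Th17 effectors (8 of 13). On the lower side stood genes of the naive and memory-like state (19 of 24 lower), STAT and SOCS genes (8 of 15) and T cell receptor signalling genes (12 of 25). In bulk RNA, fewer cells of a type and less RNA per cell cannot be told apart.

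**Figure D1:**
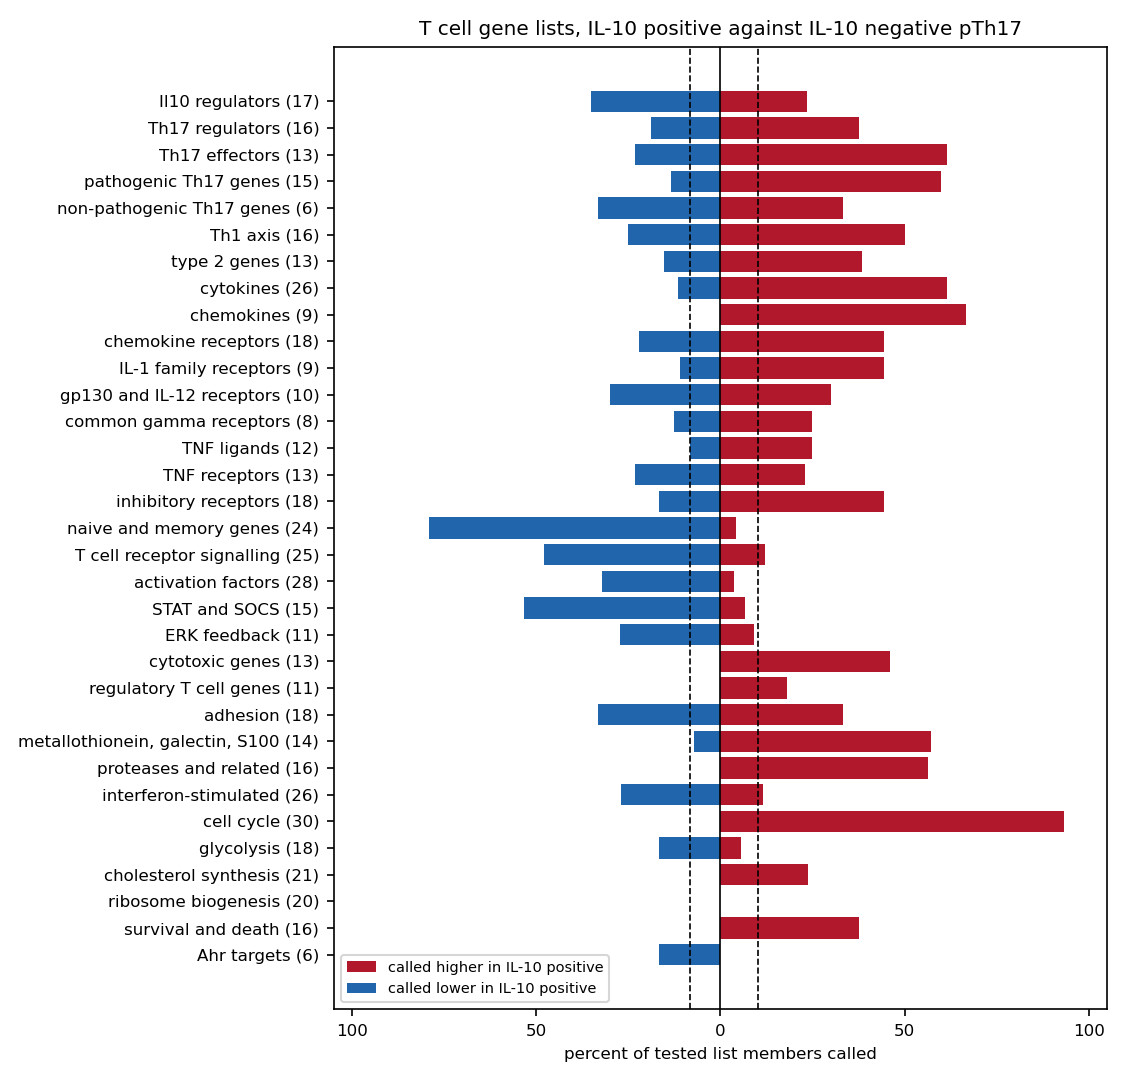
Percent of the tested members of each T cell gene list other than the pair of Il10 and Thy1 that were called higher (bars to the right) or lower (bars to the left) in IL-10 positive than in IL-10 negative pTh17 libraries, with the count of tested members beside each name. Dashed lines mark the background over all 12611 genes, 10.1% higher and 8.33% lower; cell cycle and chemokine genes reach furthest right and naive and memory genes furthest left.

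Transcripts of other cell types also differed between the groups and are described apart, after the T cell genes. The 20 listed B cell genes summed to 77.7, 119.9 and 126 CPM in IL-10 positive and 34.2, 34 and 27.5 CPM in IL-10 negative libraries. The 26 macrophage and monocyte genes summed to 49.9, 44 and 38.9 CPM in IL-10 positive and 20.7, 19.9 and 21.3 CPM in IL-10 negative libraries. MHC class II genes summed to 314, 334 and 367 CPM in IL-10 positive and 244, 236 and 248 CPM in IL-10 negative libraries. Dendritic cell genes summed to 122, 125 and 112 CPM in IL-10 positive and 91.6, 91.1 and 99.0 CPM in IL-10 negative libraries. Without H2-Ab1 the class II sums averaged 196 and 136 CPM, and without Cst3 the dendritic sums averaged 26.7 and 7.87 CPM. Each of these sums was higher in every IL-10 positive library. Their part in the T cell results below was not tested.

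Among transcription factors linked to Il10, 4 of 17 were higher and 6 lower. Maf, which encodes the c-Maf factor that binds the Il10 promoter (chromosome 8 from 115703253 to 115706894 in mm10), stood at 119, 104 and 91.2 CPM in IL-10 positive libraries, against 30.8, 28.5 and 25.4 CPM in IL-10 negative libraries. Prdm1, the gene of Blimp-1 (chromosome 10 from 44437174 to 44528558), stood at 67, 55.8 and 58.4 CPM in IL-10 positive libraries, against 15.5, 17.8 and 14.6 CPM in IL-10 negative libraries. The groups did not overlap for either gene. Their log2 fold changes were 1.90 ± 0.11 for Maf (edgeR, adjusted p = 1.50e-16) and 1.92 ± 0.16 for Prdm1 (edgeR, adjusted p = 4.0e-12). Nfil3, a basic leucine zipper factor of several cytokine programs, rose by 0.59 ± 0.11, and Hif1a, the oxygen-sensing factor, by 0.16 ± 0.05. The Hif1a libraries overlapped. Its call ended when replicate 13 or 15 of the IL-10 positive group (adjusted p from edgeR 0.224 and 0.0731) or replicate 14 or 15 of the IL-10 negative group (0.192 and 0.124) was left out, and likewise with no filter applied (0.124).

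The factors that went the other way include repressors and lineage regulators of other T cells. Bach2, a repressor of effector genes, stood at 87, 87.2 and 82.7 CPM in IL-10 positive libraries, against 133, 148 and 153 CPM in IL-10 negative libraries. Gata3, the Th2 regulator, stood at 131, 102 and 92.1 CPM in IL-10 positive libraries, against 164, 170.4 and 157 CPM in IL-10 negative libraries. Every IL-10 positive library was below every IL-10 negative one for both. The log2 fold change was -0.75 ± 0.07 for Bach2 (edgeR, adjusted p = 2.32e-11) and -0.59 ± 0.08 for Gata3 (edgeR, adjusted p = 4.91e-07). Egr2, a factor induced by T cell receptor signals, fell to 40.8, 33.6 and 29.5 CPM in IL-10 positive libraries, against 59.7, 58.4 and 56.1 CPM in IL-10 negative libraries. Stat3, which relays IL-6 and IL-23, had a log2 fold change of -0.34 ± 0.07. Ahr, the ligand-sensing aryl hydrocarbon receptor, was low throughout, at 4.40, 6.42 and 4.28 CPM in IL-10 positive libraries, against 9.39, 9.37 and 8.47 CPM in IL-10 negative libraries. Ahr was lower in every IL-10 positive library. Its call (-0.85 ± 0.24) ended once replicate 13 or 15 of the IL-10 positive group was left out (0.0604 and 0.0554, edgeR adjusted p). The Ikaros gene Ikzf1 was called at -0.17 ± 0.06 and lost that call when any 1 of the 6 libraries was left out, with edgeR adjusted p between 0.0528 (without IL-10 positive replicate 14) and 0.218 (without IL-10 positive replicate 15). The Ikzf1 call was also lost with RLE scaling (edgeR, adjusted p = 0.0690), without the filter on low counts (0.0783), with a replicate block (0.0634), with the genes of other cell types removed (0.0512) and in DESeq2 (adjusted p = 0.0527). Bhlhe40, Irf4, Batf, Tbx21, Ikzf3, Ets1 and Creb1 did not pass the test. Bhlhe40, which represses Il10 in T cells, stood at 562, 495 and 501 CPM in IL-10 positive libraries, against 527, 498 and 489.6 CPM in IL-10 negative libraries, and Irf4, a partner of BATF, at 513, 490.1 and 548 CPM in IL-10 positive libraries, against 546, 522 and 534 CPM in IL-10 negative libraries.

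**Figure D2:**
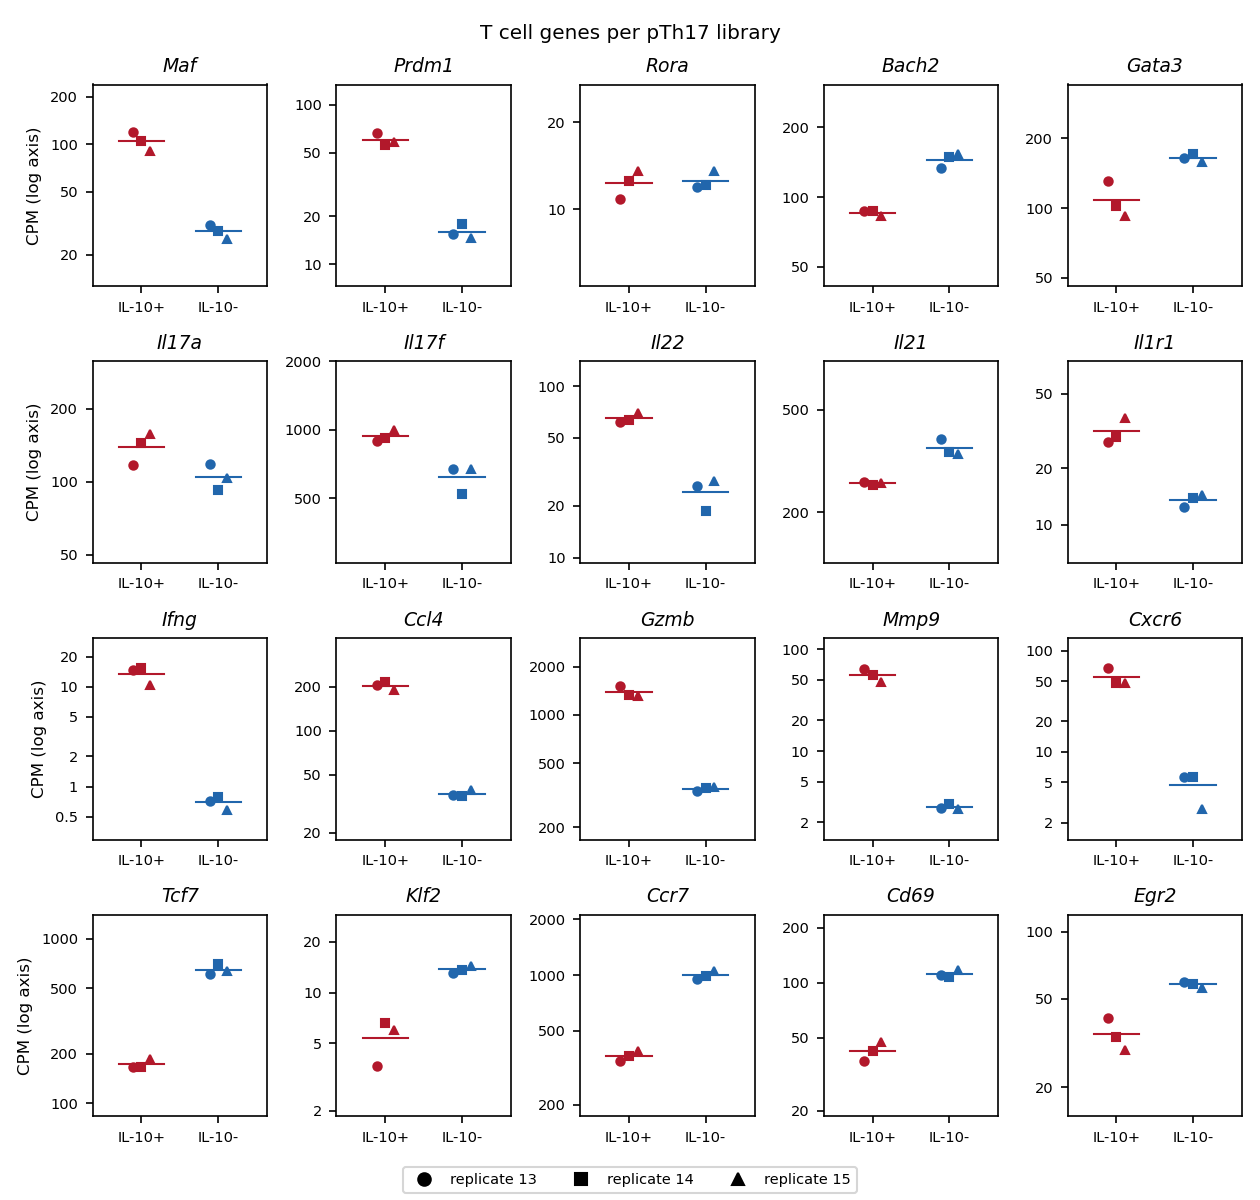
CPM per library (log axis) of 20 T cell genes in pTh17 cells, IL-10 positive libraries left and IL-10 negative right in each panel, with a bar at the group mean. Regulators stand in the top row, then Th17 cytokines and receptors, then effector genes, then naive T cell and activation genes; Maf and Prdm1 are separated between groups, while Il17a overlaps.

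The Th17 program itself was present in both groups. Of 16 regulators of Th17 cells, 6 were higher and 3 lower. Rora, a nuclear receptor that promotes Th17 differentiation in mouse T cells, stood at 10.8, 12.6 and 13.5 CPM in IL-10 positive libraries, against 11.9, 12.1 and 13.5 CPM in IL-10 negative libraries and was not called. Id2, an inhibitor of E protein factors, stood at 352, 283 and 272 CPM in IL-10 positive libraries, against 147, 120.1 and 126 CPM in IL-10 negative libraries, and Zbtb32, a zinc finger repressor of cytokine genes, at 94.6, 98.8 and 84.9 CPM in IL-10 positive libraries, against 27.8, 30.2 and 29.6 CPM in IL-10 negative libraries. Both were separated between groups, with log2 fold changes of 1.20 ± 0.08 and 1.67 ± 0.12. Etv5, an Ets factor that promotes Il17a in mouse T cells, stood at 12.1, 12.7 and 9.26 CPM in IL-10 positive libraries, against 2.29, 4.43 and 4.59 CPM in IL-10 negative libraries, and rose by 1.60 ± 0.22. Jun, a subunit of AP-1, fell, with a log2 fold change of -0.60 ± 0.07.

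Of 13 tested effector genes of Th17 cells, 8 were higher and 3 lower, and Il23r and Ccl20 were not called. Csf2 and Il9, also listed, did not pass the filter on low counts. Il17f stood at 893, 917 and 1001 CPM in IL-10 positive libraries, against 670.3, 521 and 674 CPM in IL-10 negative libraries. Il17a stood at 117, 144 and 157 CPM in IL-10 positive libraries, against 118, 92.4 and 103 CPM in IL-10 negative libraries, so that IL-10 negative replicate 13 lay above IL-10 positive replicate 13. The log2 fold change was 0.59 ± 0.08 for Il17f (edgeR, adjusted p = 1.36e-06) and 0.41 ± 0.13 for Il17a (edgeR, adjusted p = 0.0198). The Il17a call ended when replicate 14 or 15 of the IL-10 positive group was left out (edgeR, adjusted p = 0.0723 and 0.147), and likewise for the IL-10 negative group (0.131 and 0.0658). The promoters of this pair are shown because AGGTCA is the half-site bound by nuclear receptors such as Rora. The 150 bases before each start site (RefSeq, GRCm38.p6) are printed with AGGTCA or its complement TGACCT in capitals.
Il17a (chr1:20730755-20730904, plus strand): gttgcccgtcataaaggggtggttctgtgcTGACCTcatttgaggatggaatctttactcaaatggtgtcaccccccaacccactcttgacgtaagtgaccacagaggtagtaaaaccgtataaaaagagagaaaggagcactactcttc
Il17f (chr1:20784271-20784420, minus strand): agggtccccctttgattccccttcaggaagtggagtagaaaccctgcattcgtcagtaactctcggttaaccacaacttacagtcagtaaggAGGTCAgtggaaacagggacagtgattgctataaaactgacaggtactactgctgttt
Il17a held 1 match on the other strand, its first base 120 bases before the start, and Il17f 1 match on its own strand, 58 bases before the start. Windows of this length held AGGTCA on either strand for 8.58% of 32851 start sites. A match describes the letters and is not shown to be a bound site.

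Il22, which acts on epithelial cells, had a larger fold change than Il17a and Il17f. It stood at 62.1, 63.8 and 69.8 CPM in IL-10 positive libraries, against 26.1, 18.6 and 27.9 CPM in IL-10 negative libraries, with no overlap and a log2 fold change of 1.43 ± 0.17. Il1r1, the signalling receptor for the IL-1 beta in the medium, stood at 27.7, 29.5 and 37.3 CPM in IL-10 positive libraries, against 12.5, 13.9 and 14.5 CPM in IL-10 negative libraries. It rose by 1.20 ± 0.17, while Il23r, at 29.996, 29.6 and 32.6 CPM in IL-10 positive libraries, against 27.8, 22.4 and 27.1 CPM in IL-10 negative libraries, was not called. Tgfb3 rose by 0.56 ± 0.14, and the linked membrane protein genes Tmem176a and Tmem176b by 0.60 ± 0.17 and 0.94 ± 0.18. The Tmem176a call ended once replicate 15 of the IL-10 positive group was left out (0.112, edgeR adjusted p). Ccr6, the homing receptor of tissue Th17 cells, was low, at 1.19, 2.65 and 2.85 CPM in IL-10 positive libraries, against 0.361, 0.130 and 0 CPM in IL-10 negative libraries. Its log2 fold change was 3.63 ± 0.73, a description since Ccr6 passed the filter only through other libraries. IL-10 positive replicate 13 was the lowest of its group for Ccr6. The part of B cell transcripts in the Ccr6 values was not tested. Without IL-10 negative replicate 13, 1 count was left in that group, a ratio of 35.1 (95% counting interval 6.01 to 1415). Without IL-10 negative replicate 14, 3 counts were left, a ratio of 12.2 (95% counting interval 3.92 to 61). Without IL-10 negative replicate 15 the log2 fold change was 3.06. Ccl20, the ligand of Ccr6, was at 0 in 5 of the 6 libraries.

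Il21, the Th17 cytokine that helps B cells, went the other way, at 262, 254 and 260.1 CPM in IL-10 positive libraries, against 385, 343 and 336 CPM in IL-10 negative libraries. Its log2 fold change was -0.46 ± 0.08 with no overlap (edgeR, adjusted p = 3.39e-05). Cxcr3, a receptor shared with Th1 cells, had a log2 fold change of -0.91 ± 0.12, and Il6ra, the IL-6 receptor, -0.56 ± 0.10. Csf2, which encodes GM-CSF, a cytokine tied to pathogenicity, had counts in 1 library alone, 0.238 CPM in IL-10 positive replicate 13.

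Genes known from pathogenic and from non-pathogenic Th17 cells were called in both directions. Of 15 tested genes known from pathogenic cells, 9 were higher and 2 lower in IL-10 positive cells. The 9 were Il22, Icos, Gzmb, Lag3, Lgals3 and the chemokine genes Ccl3, Ccl4, Ccl5 and Cxcl3, and the 2 lower were Lrmp (-0.38 ± 0.06) and Stat4 (-0.27 ± 0.07). The Stat4 call ended once replicate 15 of the IL-10 positive group was left out (0.0580, edgeR adjusted p). Of 6 tested genes known from non-pathogenic cells, Maf was higher beside Il10, whose rise the sort fixed, Ahr and Il6st were lower, and Ikzf3 and Il1rn were not called. Il6st, the shared signalling chain of the IL-6 receptor family, stood at 28.1, 24.7 and 23.7 CPM in IL-10 positive libraries, against 41.2, 37.6 and 47.8 CPM in IL-10 negative libraries, a log2 fold change of -0.72 ± 0.12.

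Of 26 tested cytokine genes (31 are listed), 16 were higher and 3 lower. Among the higher ones is Il10, on which the cells were sorted. Ifng, the Th1 cytokine (chromosome 10 from 118441046 to 118445894), stood at 14.6, 15.4 and 10.4 CPM in IL-10 positive libraries, against 0.722, 0.781 and 0.588 CPM in IL-10 negative libraries. Its groups were far apart, and the log2 fold change was 4.25 ± 0.27 (edgeR, adjusted p = 1.28e-14). With so few counts in IL-10 negative libraries, Ifng passed the filter only through others, and this fold change is a description. Tbx21, its Th1 regulator, stood at 73.4, 86.8 and 76.7 CPM in IL-10 positive libraries, against 64.1, 75 and 70.1 CPM in IL-10 negative libraries and was not called. Other Th1 axis genes that rose were Il18r1 and Il18rap, the chains of the IL-18 receptor (0.74 ± 0.10 and 1.30 ± 0.22), Il12rb1 and Il12rb2, the chains of the IL-12 receptor (0.40 ± 0.07 and 0.52 ± 0.07), and Hlx, a homeobox factor that acts with T-bet (1.31 ± 0.22). Ifngr2, a chain of the interferon gamma receptor, had a log2 fold change of -0.53 ± 0.09. Cxcr6 and Ccl5 are described with the chemokines. In all, 8 of 16 Th1 axis genes were higher and 4 lower.

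Type 2 cytokine genes had low CPM values and 4 of them were higher, while their regulator Gata3 was lower. Il4 stood at 9.52, 10.9 and 11.3 CPM in IL-10 positive libraries, against 5.78, 3.77 and 5.65 CPM in IL-10 negative libraries, a log2 fold change of 1.05 ± 0.19. Il5 stood at 4.40, 8.10 and 0.855 CPM in IL-10 positive libraries, against 0.241, 0 and 0.235 CPM in IL-10 negative libraries, and its libraries did not overlap although the IL-10 positive values differ among themselves. The Il5 log2 fold change was 4.65 ± 0.73, or 3.92 without IL-10 positive replicate 14. It is a description, since Il5 was near 0 in IL-10 negative libraries and passed the filter only through others. Il13 had 38 counts over the IL-10 positive libraries and 1 over the IL-10 negative ones, a ratio of 41.2 (95% counting interval 6.96 to 1670.0). Il24, a member of the IL-10 family, rose by 1.5 ± 0.29. Il9 was at 0 in all 6 libraries.

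Of the other listed cytokines, Csf1, the macrophage growth factor gene, stood at 14.2, 14.8 and 17.5 CPM in IL-10 positive libraries, against 2.65, 1.95 and 1.88 CPM in IL-10 negative libraries, with no overlap and a log2 fold change of 2.83 ± 0.19. Spp1, the gene of osteopontin, stood at 57.6, 51.5 and 58.4 CPM in IL-10 positive libraries, against 8.67, 4.17 and 5.76 CPM in IL-10 negative libraries, and rose by 3.16 ± 0.24. Ebi3, the shared chain of IL-27 and IL-35, stood at 15.6, 15.8 and 13.7 CPM in IL-10 positive libraries, against 4.82, 4.69 and 4.0 CPM in IL-10 negative libraries, and rose by 1.74 ± 0.29. Of 12 tested TNF family ligands, 3 were higher, 1 was lower and 8 were not called, so that the lower share equals the background of 8.33%. Tnf rose by 0.52 ± 0.13, a call that ended once replicate 14 of the IL-10 negative group was left out (0.0544, edgeR adjusted p). The lower ones of the cytokine list beside Il21 were Lif (-0.53 ± 0.10) and Il16 (-0.40 ± 0.06). Il2 stood at 3.45, 6.84 and 8.84 CPM in IL-10 positive libraries, against 8.55, 8.46 and 9.18 CPM in IL-10 negative libraries and was not called.

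Levels of different genes can be compared per transcript length, as TPM. On that scale Il17f was the most abundant listed cytokine or chemokine transcript in IL-10 positive cells, at 1568 ± 129 TPM, against 982 ± 103 in IL-10 negative cells (mean ± SD, n = 3 each). Ccl4 came next, at 672 ± 37.5 TPM in IL-10 positive and 116 ± 3.78 in IL-10 negative cells. Ltb, a membrane TNF family ligand, stood at 667 ± 44.5 TPM in IL-10 positive and 709.5 ± 41 in IL-10 negative cells, and in IL-10 positive cells it differed from Ccl4 by less than the SDs. Il17a followed at 235 ± 39.5 TPM in IL-10 positive and 166 ± 16.6 in IL-10 negative cells. Il21 stood at 154 ± 3.81 TPM in IL-10 positive and 201 ± 15.3 in IL-10 negative cells. Il10 itself stood at 76.8 ± 1.22 TPM in IL-10 positive cells, close to Spp1 at 75.9 ± 5.66, and at 1.11 ± 0.602 TPM in IL-10 negative cells. Ifng reached 21.9 ± 4.04 TPM in IL-10 positive cells, against 1.08 ± 0.191 TPM in IL-10 negative cells. Il4, low in CPM, was above Ifng on this scale. It stood at 35, 40.6 and 43.1 TPM in IL-10 positive and 19.9, 13.8 and 19.3 TPM in IL-10 negative libraries.

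**Figure D3:**
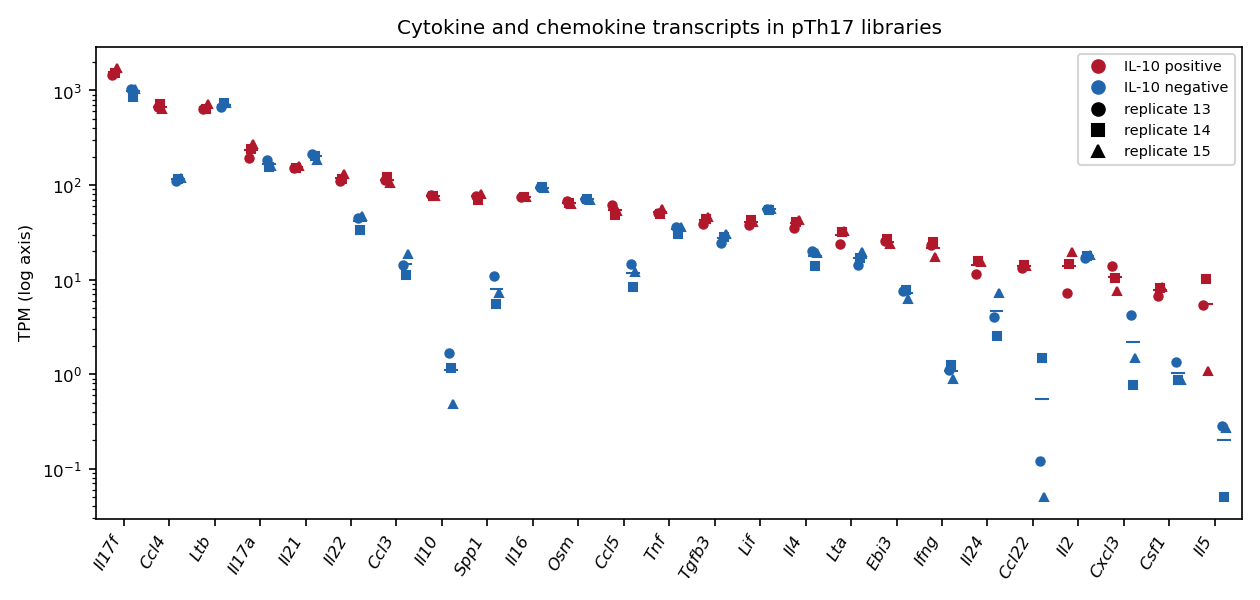
TPM per library (log axis, values below 0.05 drawn at 0.05) of listed cytokine and chemokine genes at 5 TPM or more in either pTh17 group, ordered by the IL-10 positive mean, with IL-10 positive points left and IL-10 negative points right at each gene. Il17f leads in both groups, and Il10 lies near Spp1 in IL-10 positive libraries and near 1 TPM in IL-10 negative ones.

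Inflammatory chemokine genes were higher in 6 of 9 tested, and Ccl20, Cxcl10 and Ccl9 were not called. Ccl3 stood at 44, 46.1 and 39.1 CPM in IL-10 positive libraries, against 5.78, 4.30 and 7.65 CPM in IL-10 negative libraries, and Ccl4, a closely related chemokine gene, at 207, 216 and 189 CPM in IL-10 positive libraries, against 36.4, 35.9 and 39.3 CPM in IL-10 negative libraries. Neither gene's libraries overlapped, with log2 fold changes of 2.85 ± 0.19 and 2.45 ± 0.12. Ccl5 rose by 2.12 ± 0.23 and Cxcl16, the ligand of CXCR6, by 2.80 ± 0.58. Ccl22, a ligand of CCR4 that B cells and dendritic cells also make, stood at 13, 13.7 and 13.1 CPM in IL-10 positive libraries, against 0.120, 1.43 and 0 CPM in IL-10 negative libraries. Its log2 fold change, a description since Ccl22 passed the filter only through other libraries, was 4.70 ± 0.69, and 4.10 without IL-10 negative replicate 15. Without replicate 14 that group had 1 count, a ratio of 223 (95% counting interval 39.6 to 8818). Cxcl3, a neutrophil attractant, was low and rose by 2.20 ± 0.40, or 3.12 without IL-10 negative replicate 13. B cell, dendritic and myeloid marker sums were higher in the same libraries, and their part in the chemokine values was not tested.

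Of 18 tested chemokine receptor and related migration genes, 8 were higher, 4 were lower and 6 were not called, with a median log2 fold change of 0.01. Cxcr6, a receptor of tissue-resident T cells, stood at 67, 48.6 and 48.3 CPM in IL-10 positive libraries, against 5.66, 5.60 and 2.71 CPM in IL-10 negative libraries, with a log2 fold change of 3.57 ± 0.17. Ccr1 and Ccr2 rose by 2.64 ± 0.22 and 1.74 ± 0.13, and the oxysterol receptor gene Gpr183 by 0.87 ± 0.08. Ccr7, which guides naive T cells to lymph nodes, stood at 346, 366 and 389 CPM in IL-10 positive libraries, against 952, 989 and 1057 CPM in IL-10 negative libraries. S1pr1, the receptor for exit from lymph nodes, stood at 58.1, 57.8 and 57 CPM in IL-10 positive libraries, against 145, 163 and 158 CPM in IL-10 negative libraries. Every IL-10 positive library lay below every IL-10 negative one for both, with log2 fold changes of -1.44 ± 0.06 and -1.43 ± 0.08. The other lower members were Cxcr3, described with the Th17 effectors, and S1pr4. Ccr4 and Ccr8 were among those not called.

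Of 9 tested IL-1 family receptors, 4 were higher and 1 was lower. Il1r2, a decoy receptor that binds IL-1 without signalling, stood at 423, 394 and 368 CPM in IL-10 positive libraries, against 139, 117 and 126 CPM in IL-10 negative libraries. It rose by 1.64 ± 0.12 with no overlap, beside the rise of the signalling receptor Il1r1. Sigirr, an inhibitory member of the family, had a log2 fold change of -0.21 ± 0.06, a call that ended once replicate 15 of the IL-10 negative group was left out (0.151, edgeR adjusted p) or replicate 13 of the IL-10 positive group (0.0542). Of 8 receptors of the common gamma group, 2 were higher and 1 was lower, a lower share of 12.5% near the background of 8.33%. Of 10 of the gp130 and IL-12 group, 3 were higher and 3 were lower, against backgrounds of 10.1% and 8.33%. In the IL-2 receptor, Il2ra stood at 843, 833 and 828 CPM in IL-10 positive libraries, against 618, 592 and 591 CPM in IL-10 negative libraries, and rose by 0.48 ± 0.06; Il2rb rose by 0.29 ± 0.06. Il10ra, the ligand-binding chain of the IL-10 receptor, fell to 36.7, 36.4 and 32.5 CPM in IL-10 positive libraries, against 46.4, 59.1 and 64.2 CPM in IL-10 negative libraries, a log2 fold change of -0.68 ± 0.09. Il27ra rose by 0.29 ± 0.07, and Il21r and Il7r were not called. Among STAT and SOCS genes, 8 of 15 were lower, including Stat5a (-0.34 ± 0.07), Stat5b (-0.31 ± 0.07), Socs3 (-0.33 ± 0.08) and Bcl6 (-0.77 ± 0.10), and Socs2 was higher (0.46 ± 0.09).

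Among inhibitory receptors, 8 of 18 tested genes were higher and 3 lower. Ctla4, the receptor that outcompetes CD28, stood at 471, 432 and 410.2 CPM in IL-10 positive libraries, against 204, 187 and 188 CPM in IL-10 negative libraries. Tigit stood at 236, 198 and 222 CPM in IL-10 positive libraries, against 101, 86.2 and 88.5 CPM in IL-10 negative libraries, and Entpd1, the gene of the ATP-degrading enzyme CD39, at 55.3, 47.6 and 39.1 CPM in IL-10 positive libraries, against 14.6, 14.1 and 12.6 CPM in IL-10 negative libraries. All 3 were separated between groups, with log2 fold changes of 1.18 ± 0.07, 1.249 ± 0.09 and 1.79 ± 0.13. Havcr2, the gene of TIM-3, was low, at 6.78, 4.61 and 5.56 CPM in IL-10 positive libraries, against 0, 0.651 and 0 CPM in IL-10 negative libraries. Its log2 fold change was 4.70 ± 0.41, a description since Havcr2 passed the filter only through other libraries. IL-10 negative replicate 14 held all the counts of that group, and without it Havcr2 was at least 32-fold higher, with the IL-10 negative group set to a floor of 3 counts. Lag3 was abundant, at 1451, 1217 and 1200.2 CPM in IL-10 positive libraries, against 1045, 1039.6 and 986 CPM in IL-10 negative libraries, and rose by 0.33 ± 0.06. Pdcd1, the gene of PD-1, was called at 0.31 ± 0.10 and lost the call when replicate 13 or 15 of the IL-10 positive group (adjusted p from edgeR 0.0698 and 0.140) or replicate 14 or 15 of the IL-10 negative group (0.139 and 0.107) was left out, and likewise with no filter applied (0.0725).

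Not every inhibitory gene followed. Btla, a receptor of resting T cells, stood at 193, 200.3 and 222 CPM in IL-10 positive libraries, against 358, 334 and 352 CPM in IL-10 negative libraries, a log2 fold change of -0.76 ± 0.06. Nt5e, the gene of CD73, the enzyme that follows CD39 in making adenosine, had a log2 fold change of -1.31 ± 0.25, and Cd200 had -0.50 ± 0.08. Cd274, the gene of PD-L1, stood at 34.5, 28.3 and 32.1 CPM in IL-10 positive libraries, against 24.1, 29.9 and 26.5 CPM in IL-10 negative libraries and was not called. Among stimulatory receptors, Icos, the inducible relative of CD28, stood at 813, 696 and 717 CPM in IL-10 positive libraries, against 285, 265 and 273 CPM in IL-10 negative libraries, with no overlap. It rose by 1.43 ± 0.06, and Cd28 was not called. In the TNF receptor family, Tnfrsf8 (CD30), Tnfrsf1b and Tnfrsf9 (4-1BB) rose by 1.84 ± 0.16, 0.75 ± 0.09 and 0.62 ± 0.07. Cd27, Tnfrsf14 and Fas were lower, at -0.81 ± 0.06, -0.68 ± 0.17 and -0.51 ± 0.09.

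Genes of the naive and memory-like state were lower in 19 of 24, and 11 of these differed at least 2-fold, against a background of 8.33% lower and 0.722% at least 2-fold lower. The list's median log2 fold change was -0.86. Tcf7, the gene of TCF-1 (chromosome 11 from 52246527 to 52283383), which keeps T cells memory-like, stood at 167, 166 and 186 CPM in IL-10 positive libraries, against 607, 699 and 639 CPM in IL-10 negative libraries. Igfbp4, an IGF-binding protein gene, stood at 426, 508 and 575 CPM in IL-10 positive libraries, against 1533, 1679 and 1751 CPM in IL-10 negative libraries. The groups did not overlap for either gene, and the log2 fold changes were -1.91 ± 0.07 and -1.72 ± 0.08. Klf2, the factor that drives S1pr1, fell to 3.69, 6.56 and 5.99 CPM in IL-10 positive libraries, against 13.1, 13.7 and 14.5 CPM in IL-10 negative libraries. Dapl1 had a log2 fold change of -2.70 ± 0.36, or -3.35 without IL-10 positive replicate 14. Klf3 (-1.71 ± 0.26), Slamf6 (-1.43 ± 0.07), Lef1 (-0.38 ± 0.06), Id3 (-0.91 ± 0.13) and Foxp1 (-0.58 ± 0.08) were lower too. Ly6c1 was the 1 member that rose (0.45 ± 0.09), and Satb1, Ets1, Il7r and Bcl2 did not pass the test.

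Of 25 T cell receptor signalling genes, 12 were lower, 3 were higher (Icos, Cd5 and Themis) and 10 were not called, with a median log2 fold change of -0.14. Cd3e stood at 319, 305 and 316 CPM in IL-10 positive libraries, against 413, 457 and 427 CPM in IL-10 negative libraries, and Cd247, the zeta chain, at 430.3, 406 and 397 CPM in IL-10 positive libraries, against 564, 546 and 555 CPM in IL-10 negative libraries, with no overlap for either. Their log2 fold changes were -0.46 ± 0.07 and -0.43 ± 0.05, and Cd4, Lck and Zap70 were not called. Cd69, an early activation marker that also retains cells in tissue, stood at 37.3, 42.3 and 47.5 CPM in IL-10 positive libraries, against 111, 108 and 118 CPM in IL-10 negative libraries, a log2 fold change of -1.41 ± 0.11. Tespa1, an adaptor of receptor signalling, was lower (-1.21 ± 0.26). Themis, a regulator of receptor signals in developing T cells, rose by 0.57 ± 0.06. Of 28 activation factors, 9 were lower, 1, Id2, was higher and 18 were not called. The lower ones include the immediate early genes Fos (-0.81 ± 0.13), Fosb (-1.08 ± 0.18) and Nr4a1 (-0.49 ± 0.06). Of 11 ERK feedback genes, 3 were lower and 1 was higher, and the higher share of 9.09% was near the background of 10.1%. Dusp1, a phosphatase of MAP kinases, had a log2 fold change of -0.40 ± 0.10. Dusp4, another such phosphatase, rose by 1.5 ± 0.19, while Spry1, an inhibitor of the same pathway, had a log2 fold change of -0.78 ± 0.15.

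Adhesion genes were divided, with 6 of 18 higher and 6 lower. Itgav, the integrin chain that pairs to activate TGF-beta, stood at 27.9, 26.8 and 28.9 CPM in IL-10 positive libraries, against 14.2, 12.8 and 12.7 CPM in IL-10 negative libraries, and rose by 1.07 ± 0.14. Alcam, a ligand of CD6, and Icam1, a ligand of LFA-1, rose by 0.97 ± 0.14 and 0.66 ± 0.11. Among the lower ones were Itga4 (-0.51 ± 0.10), Itgb7, Cd44, Cd9 and Cd226. Itga4 and Itgb7 encode the chains of the gut homing integrin. Of 11 genes known from regulatory T cells Il2ra and Ctla4 were higher, and the other members, Foxp3 among them, were not called.

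Cytotoxic genes were higher in 6 of 13 tested, and the other members were not called. Gzmb, granzyme B, stood at 1505, 1329 and 1315 CPM in IL-10 positive libraries, against 335, 349 and 358 CPM in IL-10 negative libraries. Prf1, the pore protein perforin, stood at 64.6, 60.4 and 59 CPM in IL-10 positive libraries, against 14.1, 11.7 and 17.3 CPM in IL-10 negative libraries, and Gzma at 79.5, 67.3 and 48.2 CPM in IL-10 positive libraries, against 22.2, 15.4 and 6.82 CPM in IL-10 negative libraries. These 3 were separated between groups, with log2 fold changes of 1.99 ± 0.10, 2.09 ± 0.11 and 2.15 ± 0.20. Gzmc and Nkg7 rose by 2.70 ± 0.33 and 1.59 ± 0.09. Granzyme genes d to g were at or near 0 in both groups, and the CD8 T cell genes Cd8a and Cd8b1 summed to 19.6, 22.2 and 22.5 CPM in IL-10 positive and 24.6, 21.6 and 22 CPM in IL-10 negative libraries. The NK receptor genes, described with the other cell types, summed to 25.6, 24.6 and 23.1 CPM in IL-10 positive and 11, 11.3 and 9.53 CPM in IL-10 negative libraries, with the defining gene Ncr1 at or near 0, and their part in the cytotoxic values was not tested.

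Of 16 genes in a list of proteases, their inhibitors and other secreted, surface or signalling genes, 9 were higher and 7 were not called, against the background of 10.1% higher. Mmp9, a gelatinase, stood at 64.3, 55.8 and 47.3 CPM in IL-10 positive libraries, against 2.77, 2.99 and 2.71 CPM in IL-10 negative libraries, with a log2 fold change of 4.30 ± 0.22 and no overlap (edgeR, adjusted p = 4.59e-18). Adam8, a membrane protease, stood at 118, 104 and 89.9 CPM in IL-10 positive libraries, against 21.9, 14.3 and 18.5 CPM in IL-10 negative libraries. Furin, the convertase that activates TGF-beta and other secreted proteins, stood at 431, 406 and 419 CPM in IL-10 positive libraries, against 157, 157 and 159 CPM in IL-10 negative libraries. Adam8 and Furin rose by 2.51 ± 0.14 and 1.41 ± 0.06, the serpin gene Serpina3g by 3.88 ± 0.47 and the G protein regulator Rgs1 by 1.24 ± 0.08. Macrophages and neutrophils also make Mmp9 and Adam8, and the part of their transcripts was not tested. Among structural genes Vim rose by 0.89 ± 0.06, S100a4 by 1.81 ± 0.36 and the zinc-binding metallothionein Mt1 by 0.77 ± 0.13. In survival genes Bcl2a1d, Bcl2a1b and Bcl2l1 rose by 2.79 ± 0.27, 1.29 ± 0.11 and 1.11 ± 0.07. The Bcl2a1 genes are near-identical copies, and counts may be shared between them.

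Proliferation genes were higher by a small, even step. All but 2 of 30 listed cell cycle genes were called higher, with a median log2 fold change of 0.45, and none reached 2-fold. Cdk1, the mitotic kinase, stood at 137, 140.4 and 147 CPM in IL-10 positive libraries, against 72.1, 75.4 and 88 CPM in IL-10 negative libraries, and Mki67, the Ki-67 antigen, at 235, 251 and 273 CPM in IL-10 positive libraries, against 188, 186 and 182 CPM in IL-10 negative libraries. Their log2 fold changes were 0.85 ± 0.09 and 0.45 ± 0.08, and Tyms and Ccne1 were not called. Glycolysis genes showed no such step: 1 of 18 was higher (Slc2a1) and 3 lower (Gpi1, Pfkp and Pdk1), with a median of 0.05. Of 20 ribosome biogenesis genes edgeR called none at the adjusted threshold (1 higher and 1 lower at an unadjusted p under 0.05), and DESeq2 called 0 higher and 0 lower. In cholesterol synthesis 5 of 21 were higher, at most 0.47 ± 0.12 for Hsd17b7.

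Set against Th17 cultures, the proliferation and metabolic differences were far smaller in pTh17. The difference between cultures was tested as an interaction in the same fit, which shares the pTh17 libraries with the values above. It called 43.2% of 12611 genes, 19.9% with an interaction above 0 and 23.3% with one below 0. Total expected counts in Th17 ran from 9410288 to 9774881 in IL-10 positive and from 5695832 to 5915474 in IL-10 negative libraries. The part of this depth difference in the interactions was not tested. In Th17 cells Cdk1 averaged 130.1 ± 3.32 CPM in IL-10 positive and 9.44 ± 1.73 CPM in IL-10 negative libraries (SD, n = 3 each), so that the interaction was -2.94 ± 0.16 on the log2 scale (edgeR, adjusted p = 5.81e-18). All 30 cell cycle genes, all 20 ribosome biogenesis genes and 17 of 18 glycolysis genes were called with an interaction below 0. Tpi1, a glycolytic enzyme, averaged 1536 ± 15 CPM in IL-10 positive and 1603 ± 26.6 CPM in IL-10 negative pTh17 libraries, and 1427 ± 51 and 250.1 ± 32.5 CPM in those of Th17 (interaction -2.57 ± 0.10; edgeR, adjusted p = 1.14e-21). For Tpi1, both pTh17 groups and IL-10 positive Th17 libraries held high levels, and IL-10 negative Th17 libraries a low one.

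**Figure D4:**
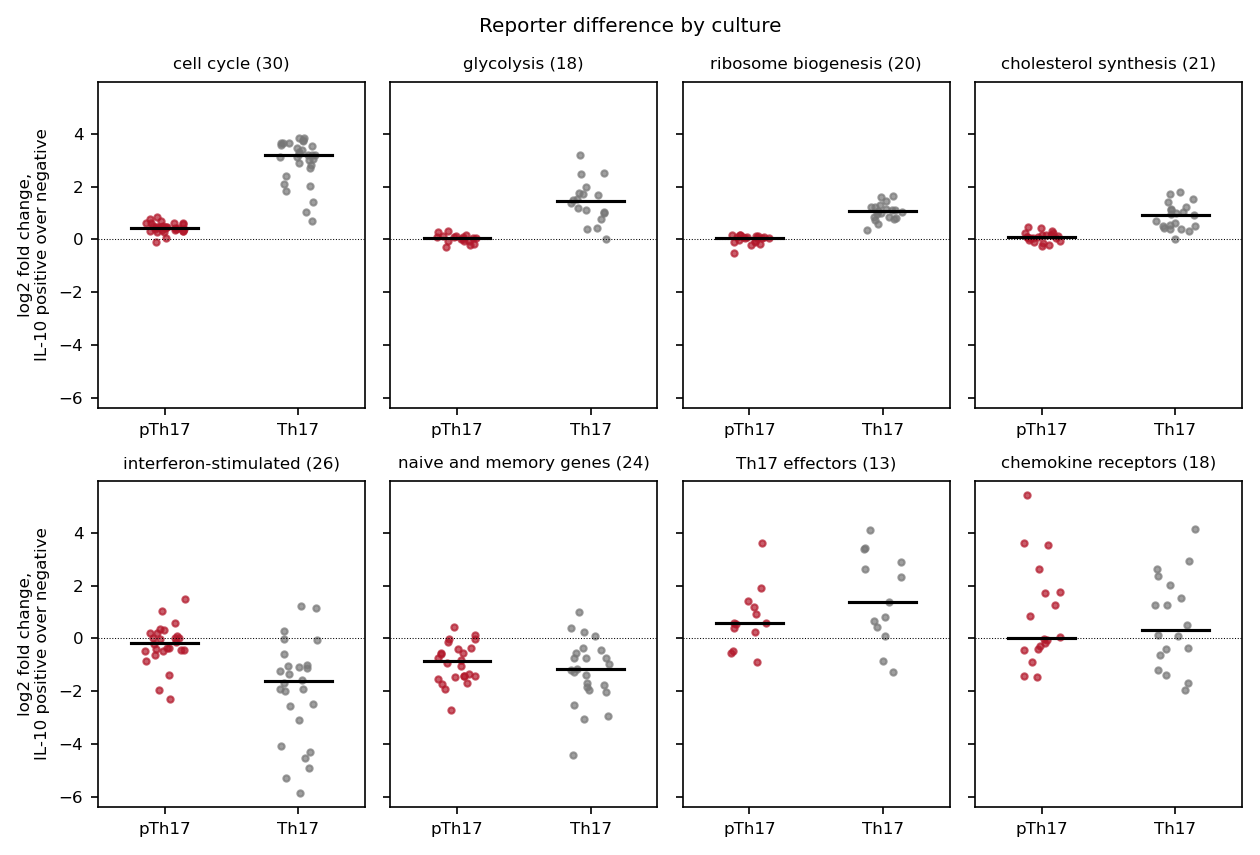
Log2 fold changes of IL-10 positive over IL-10 negative libraries for members of 8 gene lists in pTh17 (left column of points in each panel) and Th17 (right column), each point 1 gene and each bar the list median. Cell cycle, glycolysis and ribosome biogenesis genes sit near 0.45, 0.05 and 0.06 in pTh17 by median and near 3.21, 1.45 and 1.07 in Th17.

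The IL-17 genes showed the same contrast between cultures. Il17f averaged 937 ± 56.6 CPM in IL-10 positive and 622 ± 87.6 CPM in IL-10 negative pTh17 libraries, against 1069.7 ± 28.3 and 98.1 ± 5.64 CPM in those of Th17. The interaction was -2.86 ± 0.12 for Il17f (edgeR, adjusted p = 2.02e-19), -2.97 ± 0.22 for Il17a (edgeR, adjusted p = 6.04e-13) and -2.65 ± 0.26 for Il23r (edgeR, adjusted p = 6.91e-10). For Il21 the sign differed: it was lower with the reporter in pTh17 and higher in Th17 (1.39 ± 0.08), an interaction of -1.85 ± 0.11 (edgeR, adjusted p = 2.57e-16). Ahr was likewise lower in pTh17 and higher in Th17 (1.90 ± 0.17), with an interaction of -2.76 ± 0.30 (edgeR, adjusted p = 8.05e-10). Bach2 behaved in the same way, with 0.38 ± 0.06 in Th17 and an interaction of -1.14 ± 0.09 (edgeR, adjusted p = 4.03e-13).

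Maf and Icos differed in the other direction. Maf was as high in IL-10 negative as in IL-10 positive Th17 libraries, at 141 ± 7.41 CPM in IL-10 positive and 138 ± 5.05 CPM in IL-10 negative ones, so that the interaction was 1.87 ± 0.15 (edgeR, adjusted p = 2.12e-13). Icos averaged 342 ± 7.93 and 326 ± 10.4 CPM there, an interaction of 1.37 ± 0.08 (edgeR, adjusted p = 1.97e-16). Prf1 and Gzma were lower with the reporter in Th17, at -4.74 ± 0.25 and -3.27 ± 0.67, and higher in pTh17, with interactions of 6.83 ± 0.26 (edgeR, adjusted p = 5.44e-22) and 5.42 ± 0.68 (edgeR, adjusted p = 2.74e-08). Gzmb was nearly absent from Th17, at 0.222 ± 0.111 CPM in IL-10 positive and 0.109 ± 0.189 CPM in IL-10 negative libraries, and no interaction is given for it.

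Interferon-stimulated genes were mixed in pTh17, with 3 of 26 higher, near the background, and 7 lower, or 26.9% against a background of 8.33%. Usp18, an inhibitor of interferon signalling, stood at 1.55, 2.23 and 2.71 CPM in IL-10 positive libraries, against 10.8, 11.8 and 9.29 CPM in IL-10 negative libraries, a log2 fold change of -2.31 ± 0.20. Isg20, an exonuclease, rose by 1.05 ± 0.19, and Ifi27l2a and Gbp2 had log2 fold changes of -0.85 ± 0.08 and -0.46 ± 0.08. Gbp and Ifit genes have close paralogs, so their counts may be shared. In Th17 the list's median was -1.63, and 18 of 26 genes were called with an interaction above 0. Gbp4, a guanylate binding protein, averaged 117 ± 7.94 CPM in IL-10 positive and 93.1 ± 4.26 CPM in IL-10 negative pTh17 libraries, and 6.70 ± 1.20 and 57.6 ± 0.595 CPM in those of Th17, an interaction of 3.43 ± 0.13 (edgeR, adjusted p = 4.55e-22).

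Genes in none of the lists add to both sides. The 10 lowest by the naming rule were Pdlim4, Tns4, Bambi-ps1, Hectd2, Inadl, Ms4a4c, Pdlim1, Scml4, Gabrr2 and Aff3. Scml4, a polycomb group gene, stood at 26.8, 31.3 and 27.5 CPM in IL-10 positive libraries, against 76, 81.7 and 89.9 CPM in IL-10 negative libraries, and Pdlim1, a cytoskeletal LIM protein gene, at 20.8, 24.4 and 29.8 CPM in IL-10 positive libraries, against 68.2, 71.1 and 77.4 CPM in IL-10 negative libraries. Aff3, of the AF4 family of nuclear proteins, stood at 14.9, 18 and 20.5 CPM in IL-10 positive libraries, against 47.6, 58.6 and 47.4 CPM in IL-10 negative libraries. The groups did not overlap for any of these 3, with log2 fold changes of -1.53 ± 0.08, -1.54 ± 0.11 and -1.53 ± 0.12; Pdlim4 and Tns4 had -2.40 ± 0.28 and -2.12 ± 0.21.

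The 10 highest in no list were Fcgr2b, Chi3l1, Cd83, Il4i1, Cd86, Ido1, Mamdc2, Coro2a, Marcks and Epha2. Several are known from antigen-presenting cells: Fcgr2b is the inhibitory Fc receptor of B cells and myeloid cells, Cd83 and Cd86 are surface proteins of activated B cells and dendritic cells, and Ido1 and Il4i1 are enzymes that break down amino acids. Cd86 stood at 16.1, 22.1 and 23.5 CPM in IL-10 positive libraries, against 0.361, 0.781 and 0.471 CPM in IL-10 negative libraries, and Cd83 at 14.2, 19.8 and 21.5 CPM in IL-10 positive libraries, against 0.361, 0.260 and 0.471 CPM in IL-10 negative libraries. For both, IL-10 positive replicate 13 was the lowest of its group. Cd86, Cd83 and Il4i1 had few counts in IL-10 negative libraries and passed the filter only through other libraries, so their fold changes are descriptions. Cd86 and Cd83 rose by 5.23 ± 0.39 and 5.59 ± 0.43. Il4i1 rose by 5.24 ± 0.46. Without IL-10 negative replicate 15, 3 counts were left in that group, a ratio of 109 (95% counting interval 37 to 529). Fcgr2b had 171 counts in IL-10 positive and 1 in IL-10 negative libraries, a ratio of 185 (95% counting interval 32.8 to 7367). Whether T cells or other cells supplied these transcripts was not tested.

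Of the B cell list, 13 of 20 genes passed the filter, and 8 were higher. Most were near 0 in IL-10 negative libraries and passed the filter only through other libraries, so these counts are descriptions. Cd79a, a signalling chain of the B cell receptor, stood at 5.36, 12.7 and 13.8 CPM in IL-10 positive libraries, against 0.241, 1.04 and 1.06 CPM in IL-10 negative libraries. Mzb1, a chaperone of antibody-secreting B cells, stood at 8.57, 17.2 and 24.5 CPM in IL-10 positive libraries, against 0.120, 0.390 and 0.118 CPM in IL-10 negative libraries, and Igj, the antibody joining chain, at 0.476, 0.558 and 9.55 CPM in IL-10 positive libraries, against 0, 1.56 and 0 CPM in IL-10 negative libraries. IL-10 positive replicate 13 was the lowest of its group for all 3, and replicate 15 held most of Igj. The fitted log2 fold changes of Cd79a, Cd22 and Pou2af1 were 3.74 ± 0.48, 2.63 ± 0.42 and 0.98 ± 0.17. Ms4a1, the CD20 gene of mature B cells, had 14 counts in IL-10 positive and 2 in IL-10 negative libraries, a ratio of 7.59 (95% counting interval 1.74 to 68.8). Without Pou2af1, which T cells also express, the list summed to 79.5 ± 17.9 CPM in IL-10 positive and 17.7 ± 4.02 CPM in IL-10 negative libraries (mean ± SD, n = 3 each). The full sum was higher in all 3 IL-10 positive libraries, at the smallest two-sided p an exact permutation of 3 against 3 can give (0.10).

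MHC class II genes, which present antigen to CD4 T cells, did not move as a block. Of 10 tested, 6 were higher and 2 lower. Some, such as H2-Aa and H2-Eb1, were near 0 in IL-10 negative libraries and passed the filter only through other libraries, so these counts are descriptions. H2-Aa stood at 16, 17.9 and 20.1 CPM in IL-10 positive libraries, against 0, 0.130 and 0.235 CPM in IL-10 negative libraries, and H2-Eb1 at 16.3, 22.2 and 26.2 CPM in IL-10 positive libraries, against 0.361, 0.390 and 0.235 CPM in IL-10 negative libraries. H2-Ab1 was high in both groups, at 135, 144 and 148 CPM in IL-10 positive libraries, against 108, 101 and 112 CPM in IL-10 negative libraries. H2-Ob, a chain of the H2-O protein that restrains peptide loading, fell to 22.4, 14.9 and 21 CPM in IL-10 positive libraries, against 33.1, 28.8 and 33.8 CPM in IL-10 negative libraries. The log2 fold change was 5.97 ± 0.40 for H2-Eb1, 0.41 ± 0.09 for H2-Ab1, -0.71 ± 0.14 for H2-Ob and 2.94 ± 0.23 for Cd74, the invariant chain, and the ratio of summed counts for H2-Aa was 146 (95% counting interval 49.5 to 709). Ciita, their master regulator, stood at 3.57, 3.07 and 4.99 CPM in IL-10 positive libraries, against 0.120, 0.130 and 0.706 CPM in IL-10 negative libraries. Promoters of 3 of these genes are shown because the genes differ in direction while class II promoters share conserved boxes, among them the Y box, an inverted CCAAT. The 150 bases before each start (RefSeq, GRCm38.p6) are printed with GATTGG or its complement CCAATC in capitals.
H2-Aa (chr17:34287824-34287973, minus strand): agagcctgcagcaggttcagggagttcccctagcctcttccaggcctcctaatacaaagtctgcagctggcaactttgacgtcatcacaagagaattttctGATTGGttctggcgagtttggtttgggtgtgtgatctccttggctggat
H2-Eb1 (chr17:34305717-34305866, plus strand): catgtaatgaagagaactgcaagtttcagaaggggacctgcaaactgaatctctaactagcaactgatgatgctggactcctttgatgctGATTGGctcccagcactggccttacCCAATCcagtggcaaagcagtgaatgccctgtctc
H2-Ob (chr17:34238755-34238904, plus strand): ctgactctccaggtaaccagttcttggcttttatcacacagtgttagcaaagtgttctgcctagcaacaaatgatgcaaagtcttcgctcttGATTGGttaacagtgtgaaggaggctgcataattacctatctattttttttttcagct
Each held a match on its own strand, its first base 49 bases before the start in H2-Aa, 60 in H2-Eb1 and 58 in H2-Ob, and H2-Eb1 held another on the other strand at 35. Of 32851 windows, 10.9% held GATTGG on either strand. The promoters of H2-Aa and H2-Eb1, which rose, and of H2-Ob, which fell, all carry these letters, and nothing is drawn from that about a factor.

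Myeloid transcripts were few. Of 26 macrophage and monocyte genes 11 passed the filter, of which 5 were higher, and 4 (C1qa, C1qb, Marco and Ms4a7) were at 0 in all 6 libraries. Tyrobp and Cybb, for example, were near 0 in IL-10 negative libraries and passed the filter only through other libraries, so these counts are descriptions. Tyrobp, an adaptor of myeloid and NK receptors, stood at 3.69, 2.79 and 2.42 CPM in IL-10 positive libraries, against 0.241, 0.260 and 0.118 CPM in IL-10 negative libraries, and Cybb, the phagocyte oxidase, at 3.57, 5.30 and 5.27 CPM in IL-10 positive libraries, against 0.602, 0.130 and 0.235 CPM in IL-10 negative libraries. Lyz2, the macrophage lysozyme, had 65 counts in IL-10 positive libraries and 0 in IL-10 negative ones, so that it was at least 23.5-fold higher, with the IL-10 negative group set to a floor of 3 counts in all. Il1b, the IL-1 beta gene, had 92 counts in IL-10 positive and 1 in IL-10 negative libraries, a ratio of 99.8 (95% counting interval 17.5 to 3983). Flt3, a receptor of dendritic cells and B cell precursors, stood at 7.14, 8.51 and 5.84 CPM in IL-10 positive libraries, against 0.602, 0 and 0.118 CPM in IL-10 negative libraries. Most of the neutrophil list's sum was Cxcr2, at 103, 109 and 93.2 CPM in IL-10 positive libraries, against 61.5, 64.3 and 66.3 CPM in IL-10 negative libraries; the other 12 genes summed to 8.33, 7.40 and 7.55 CPM in IL-10 positive and 3.13, 5.08 and 2.24 CPM in IL-10 negative libraries.

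Of 9 tested NK receptor genes, some of which activated T cells express, 5 were higher and 1 lower. Genes near 0 in IL-10 negative libraries, such as Klrd1 and Klrc1, passed the filter only through other libraries, so these counts are descriptions. Klrd1 and Klrc1, which form the CD94 and NKG2A receptor, are described by their values alone. Klrd1 stood at 2.02, 3.91 and 2.85 CPM in IL-10 positive libraries, against 0.120, 0 and 0.235 CPM in IL-10 negative libraries. Klrc1 stood at 4.64, 3.07 and 3.42 CPM in IL-10 positive libraries, against 0, 0.130 and 0.235 CPM in IL-10 negative libraries, and neither gene's groups overlapped. Ncr1, the defining NK cell receptor, was at 0 in all IL-10 positive libraries and at 0.118 CPM in 1 IL-10 negative library. The summed list stood at 25.6, 24.6 and 23.1 CPM in IL-10 positive and 11, 11.3 and 9.53 CPM in IL-10 negative libraries. Mast cell and basophil genes summed to 15.5, 16.1 and 17 CPM in IL-10 positive and 14.7, 15.7 and 14.5 CPM in IL-10 negative libraries, and red cell and platelet genes stayed at or below 2.73 CPM.

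**Figure D5:**
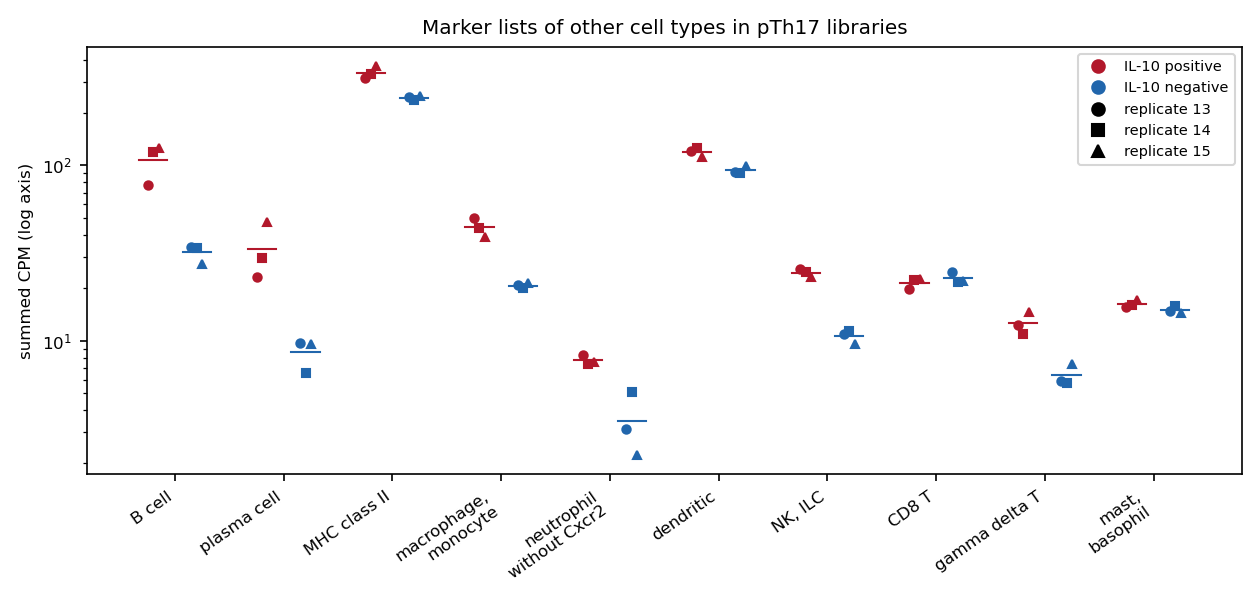
Summed CPM per library (log axis) of marker lists of other cell types, IL-10 positive libraries left and IL-10 negative right in each column, with replicate numbers as marker shapes. B cell, plasma cell and macrophage sums are higher in every IL-10 positive library; the CD8 T cell sums overlap.

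With every gene of the other cell type lists removed before scaling and testing, 1250 genes were higher and 1030 lower of 12545, against 1277 and 1050 with them. This removal leaves the counts of the other genes as they are, changes only their scaling, the shared estimate of spread and the p adjustment, and does not measure how much of their RNA came from other cells. In Th17 the B cell list without Pou2af1 averaged 6.70 CPM in IL-10 positive and 11.2 CPM in IL-10 negative libraries. Among the 10 highest interactions against Th17 by the naming rule, Ccl22, Il4i1, Blnk, Cd79a, Igf2bp2, Rufy4 and Chi3l1 stood beside Prf1 and Gzma. The 10 lowest were Hist2h3b, Fancd2, Ska1, Pif1, Espl1, Bub1 and Cenpm, genes of replication and mitosis, with Lif, P4ha2 and Nedd4; histone genes such as Hist2h3b have near-identical copies, so their counts are uncertain. Lif averaged 86.4 ± 3.77 CPM in IL-10 positive and 125 ± 7.14 CPM in IL-10 negative pTh17 libraries, and 138 ± 4.72 and 17.8 ± 2.86 CPM in those of Th17, an interaction of -3.48 ± 0.16 (edgeR, adjusted p = 3.58e-20).

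Against the mean difference of the other 4 cultures, 24.2% of 12611 genes were called, 8.94% with an interaction above 0 and 15.2% with one below 0. Of cell cycle genes 28 of 30 were called with an interaction below 0, as were 21 of 21 cholesterol genes. That mean includes Th17, where the list medians were 3.21 and 0.92. The differences of Th1, Th2 and Tr1 are not given singly here. Among the 10 highest were Cd79a, H2-Aa, H2-Eb1, Cd83, Cd86, Ccl22, Il4i1, Rufy4 and Dntt. Dntt, the gene of terminal transferase, a polymerase of developing lymphocytes, stood at 35.1, 32.2 and 37.3 CPM in IL-10 positive libraries, against 19, 18.9 and 25.5 CPM in IL-10 negative libraries, and averaged at most 2.85 ± 2.22 CPM (IL-10 negative Tr1 libraries) in the groups of the other cultures. The 10 lowest were Mt1, Mt2, Bace2, Serpinf1, Ltbp3, Fgl2, Tgoln2, Bub1, Kif4 and Hist2h3c2, the last again a histone gene. Mt1 averaged 53.7 ± 3.40 CPM in IL-10 positive and 31.4 ± 2.88 CPM in IL-10 negative pTh17 libraries, with an interaction of -2.91 ± 0.20 (edgeR, adjusted p = 3.85e-14). Maf, at 0.88 ± 0.13, and Csf1, at 2.43 ± 0.25, were above the mean of the other cultures in their difference (edgeR, adjusted p = 1.14e-06 and 5.95e-10), and Thy1, at -1.07 ± 0.08, was below it (edgeR, adjusted p = 4.12e-14). Thy1 encodes the reporter on which the cells were sorted, so its value is a description of the sort.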

How the data were processed

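The 30 libraries, 3 per group of 10, were sequenced after a full-length low-input cDNA method based on SMART-Seq2, per the labels' protocols. RSEM, with the mouse build mm10 per the submitters' processing notes, gave the authors' expected counts per gene, deposited for 23420 genes with TPM, FPKM and gene lengths; the version of RSEM, the aligner and the strand setting were not given in the sources used here. The authors' deposited TPM values are used for levels across genes only, and the deposited FPKM and gene lengths were not used. Sort groups follow the titles, since the sorting text in the labels names the Thy1.1 positive gate alone.

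The expected counts were rounded and tested with edgeR 4.0.16 in R 4.3.3 (TMM scaling, filter on low counts by group, quasi-likelihood test, a mean per group in 1 fit of 30 libraries, two-sided, Benjamini-Hochberg adjustment over 12611 genes, calls at an adjusted p below 0.05). Interactions with Th17 and with the mean of the other 4 cultures came from the same fit. Marker sums were compared by exact permutation. Without molecular identifiers, intervals and floors cover counting error only. Without a stated strand, overlapping antisense genes are not separated, and counts of near-identical genes may be shared.

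The pTh17 libraries and the 45 gene lists were chosen with earlier results of these data known. Named genes are Il10, Thy1, list members, and, of called genes whose libraries did not overlap and that averaged 5 CPM or more in either group, the 15 highest and lowest outside the lists of other cell types, the 10 highest and lowest in no list, and the 10 highest and lowest of each interaction; genes known by number were not named, and some genes that this rule covers are counted but not reported here. Of 714 list entries 699 matched the tables. Alternatives were RLE scaling, DESeq2 1.42.0, no filter, a replicate block, the 6 pTh17 libraries alone, removal of other cell types' genes, and each library left out.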

Additional observations from a re-analysis of the deposited data

Results flagged for a closer look

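The difference between IL-10 positive and IL-10 negative cells was itself different in pTh17 and in Th17 for 5449 genes, and in pTh17 and the mean of the other 4 cultures for 3049 (edgeR interaction, adjusted p below 0.05). Values below are log2 differences of pTh17 minus the other culture, with standard errors.

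Against Th17, the difference was more positive in pTh17 for Prf1 (6.83 ± 0.26), Gzma (5.42 ± 0.68), Gbp4 (3.43 ± 0.13), Maf (1.87 ± 0.15) and Icos (1.37 ± 0.08). It was more negative in pTh17 for Lif (-3.48 ± 0.16), Il17a (-2.97 ± 0.22), Cdk1 (-2.94 ± 0.16), Il17f (-2.86 ± 0.12), Ahr (-2.76 ± 0.30), Il23r (-2.65 ± 0.26), Tpi1 (-2.57 ± 0.10), Il21 (-1.85 ± 0.11) and Bach2 (-1.14 ± 0.09).

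Against the mean of the other 4 cultures, the difference was more positive in pTh17 for Csf1 (2.43 ± 0.25) and Maf (0.88 ± 0.13), and more negative for Mt1 (-2.91 ± 0.20) and Thy1 (-1.07 ± 0.08).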

How the results depend on the processing

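The counts of genes higher and lower in IL-10 positive pTh17 cells were 1277 and 1050 as reported, 1354 and 971 with RLE scaling, 1386 and 1012 with DESeq2, 1197 and 972 without the filter, and 1380 and 1087 from the 6 pTh17 libraries alone. Leaving out each library in turn gave 995 to 1154 higher and 799 to 912 lower. The interaction with Th17 then called 2246 to 2390 genes higher and 2774 to 2955 lower, against 2509 and 2940 with all libraries. Whether the replicate numbers 13, 14 and 15 pair the libraries is not stated in the labels. Deviations of same-numbered libraries from their group means correlated at 0.0276, 0.0546 and -0.00545. Those of different numbers correlated between -0.105 and 0.0757. With 3 libraries per group these values do not settle whether the libraries were paired. A replicate block gave 1279 genes higher and 1043 lower in the fit of 30 libraries, and 1455 and 1158 in that of the 6. Of 146 genes with a reported fold change, 137 kept their call and direction in the alternatives that could be computed for them, and the 9 that lost it are named beside their values: Ahr, Hif1a, Ikzf1, Il17a, Pdcd1, Sigirr, Stat4, Tmem176a and Tnf. The alternatives without 1 marker gene were chosen after seeing the data. The difference in summed CPM was 60.1 for MHC class II without H2-Ab1, against 95.5 with it. It was 4.28 for the neutrophil list without Cxcr2, against 42.0, and 18.8 for the dendritic list without Cst3, against 25.7. Fold changes of genes with few counts in IL-10 negative libraries depend on depth, at most 8761272 counts per library, and 3 against 3 libraries cannot reach an exact p below 0.10.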
